A study of Homo sapiens with 18 samples.

Results

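The genes described here write, erase or read DNA methylation. The list holds 10 genes, chosen by name from 20090 protein-coding genes: the methyltransferases DNMT1, DNMT3A and DNMT3B, the cofactor UHRF1, the dioxygenases TET1, TET2 and TET3, the glycosylases TDG and MBD4, and the reader MBD2. What was measured is the methylation of their own promoters. Each promoter was taken as a window of 1000 bp on either side of a 5′ end in the GENCODE 44 annotation of the human genome (GRCh37, also called hg19). The 5′ end of the gene gave 1 window per gene, and a distant canonical or alternative transcript start gave another for 6 genes, so that 16 of 27621 such windows belonged to the 10 genes. Below, "gene", "canonical" and "alternative" name the kind of start.

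DNA methylation in mammals sits mainly on the cytosine of CpG dinucleotides. DNMT3A and DNMT3B place it on unmethylated DNA, and DNMT1, brought to newly replicated DNA by UHRF1, copies it onto the new strand. TET enzymes oxidise 5-methylcytosine, and TDG removes oxidised forms so that repair can restore an unmethylated cytosine. MBD4 removes the thymine left when 5-methylcytosine is deaminated. MBD2 binds methylated CpGs through its methyl-CpG-binding domain, and recombinant domains of this kind are the reagent of the capture kits used here.

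The study compared 5 capture kits on DNA of 3 established and untreated human cancer cell lines, HCT15 (colorectal carcinoma), DU145 and PC3 (both prostate cancer). MBD-seq, which is the sequencing of DNA fragments caught by such a domain, gave 15 libraries, 1 per kit and line, and reduced representation bisulfite sequencing (RRBS) gave 3, 1 per line. The kits were MethylMagnet, MethylCollector, MethylCollector Ultra, MethylCap and MethylMiner. The labels give ATCC as the supplier of every line, whereas the study's methods name another source for DU145. Every line thus had 1 RRBS library and 1 library per kit, and a difference between lines has no replicate check. Whether all libraries of a line came from 1 DNA preparation is not stated in the sources used here. Growth conditions, passage and line cannot be told apart, and RNA was not measured, so that no expressed marker of the lines was available.

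Between 2192951 and 2393741 CpGs per line had at least 10 RRBS reads, with a median of 18 to 24 reads over all deposited CpGs. The MBD-seq libraries held between 10028 fragments (MethylMagnet, DU145) and 7326383 fragments (MethylMiner, HCT15). At CpGs methylated in a single line, 12 of the 15 MBD-seq libraries were deepest over those of their own line. The 3 exceptions were the MethylMiner libraries, and values for that kit are therefore given separately.

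A CpG within the sequence CCGG or TCGA, the recognition sites of the enzymes MspI and TaqI, read very differently from other CpGs. In the windows of the 10 genes, CpGs in these sites averaged 59.6% methylation in HCT15 (n = 161), 57.1% in DU145 (n = 156) and 55.4% in PC3 (n = 172). The other CpGs of the same windows averaged 12.6%, 7.41% and 6.20% (n = 620, 602 and 642). Only 3.73%, 3.85% and 4.07% of the site CpGs lay below 10% methylation, against 79.2%, 88.7% and 90.3% of the others. Genome-wide, low values were also rarer at site CpGs, where 2.01%, 1.15% and 2.33% of site CpGs and 33.2%, 30.4% and 36.3% of other CpGs lay below 10%. Site CpGs did not gather near the middle of the scale genome-wide, where their medians were 91.1%, 95.3% and 87.5%, against 56.7%, 54.8% and 53.6% in the windows of the 10 genes. Promoter windows in general were like those of the 10 genes. Over all of them the medians of site CpGs were 60.6%, 59.1% and 58.1%, and 4.08%, 2.97% and 4.23% lay below 10%. Whether a site CpG reports the methylation of the cells or bases added when the RRBS library was made was not tested, so the means over all CpGs may lie above the methylation present. Each level is therefore given over all CpGs with at least 10 reads, and again over the CpGs outside CCGG and TCGA.

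Windows in 3 genes differed between lines by at least 20 percentage points over shared CpGs, namely those of TET1, of the alternative start of DNMT3A and of the alternative start of TET3. The stretches printed here are the ones whose CpGs outside the sites differed most between lines within these windows, so their values are descriptions. All 3 lie in introns, outside every annotated exon, and are written 5′ to 3′ on the strand of the gene in GRCh37. Capitals mark the CpGs behind the values, which had at least 10 reads in each line. Other CpGs with such coverage in the printed flanks differed less and were left out of the values by the choice of the stretch.
DNMT3A, chr2:25475367-25475543, minus strand, 363 to 187 bp upstream of the alternative start: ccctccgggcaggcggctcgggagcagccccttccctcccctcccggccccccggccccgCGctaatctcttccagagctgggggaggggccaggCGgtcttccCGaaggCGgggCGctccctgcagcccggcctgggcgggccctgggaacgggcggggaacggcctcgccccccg
TET1, chr10:70320500-70320612, plus strand, 406 to 518 bp downstream of the gene start: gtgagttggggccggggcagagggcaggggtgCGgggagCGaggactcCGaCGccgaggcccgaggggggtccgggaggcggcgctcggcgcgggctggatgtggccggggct
TET3, chr2:74230294-74230399, plus strand, 454 to 559 bp downstream of the alternative start: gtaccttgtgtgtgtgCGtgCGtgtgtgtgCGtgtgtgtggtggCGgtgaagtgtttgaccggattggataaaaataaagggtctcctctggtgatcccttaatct

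The 5 marked CpGs of DNMT3A had 130 of 213 reads methylated in HCT15 (61.0%, exact 95% interval 54.1 to 67.6%). In DU145 they had 18 of 321 (5.61%, 3.36 to 8.72%) and in PC3 15 of 209 (7.18%, 4.07 to 11.6%). The 4 of TET1 had 191 of 256 reads methylated in HCT15 (74.6%, 68.8 to 79.8%), 6 of 590 in DU145 (1.02%, 0.374 to 2.20%) and 8 of 421 in PC3 (1.90%, 0.824 to 3.71%). HCT15 alone was high at both. The 4 of TET3 stood at 131 of 160 in HCT15 (81.9%, 75.0 to 87.5%), 268 of 270 in DU145 (99.3%, 97.4 to 99.9%) and 28 of 226 in PC3 (12.4%, 8.39 to 17.4%), so that here PC3 alone was low. Intervals throughout are Clopper-Pearson for reads and exact Poisson for fragments. They cover counting error only, and reads spanning several CpGs are counted at each.

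Among the de novo methyltransferases, DNMT3A was measured at the gene start and at a start inside the gene. The gene start (chr2:25564459-25566459, minus strand) was mostly unmethylated, with means over all CpGs of 16.8% ± 32.9 in HCT15 (SD over CpGs, n = 69), 15.1% ± 31.0 in DU145 (n = 67) and 16.8% ± 32.7 in PC3 (n = 69). Outside the sites, the 23 CpGs in the first 500 bp downstream averaged 0.958%, 0.286% and 0.576%. The 3 to 5 measured CpGs more than 500 bp upstream averaged 88.7%, 99.0% and 92.3%, so the upstream shore was methylated in every line.

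The alternative start of DNMT3A (chr2:25474180-25476180), 90279 bp inside the gene, belongs to transcript DNMT3A-203. It averaged 77.5% ± 21.9 in HCT15 (n = 24), 28.7% ± 30.4 in DU145 (n = 21) and 47.03% ± 30.9 in PC3 (n = 29). Outside the sites the means were 76.7% (n = 16), 10.9% (n = 13) and 36.95% (n = 19). In DU145, the site CpGs thus raised the mean from 10.9% to 28.7%.

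Over CpGs shared by a pair of lines, HCT15 exceeded DU145 at this start by 42.3 percentage points (16 CpGs) and PC3 by 31.6 points (24 CpGs). The difference of DU145 minus PC3 was -11.0 points (21 CpGs), short of 20. By Fisher's exact test with Benjamini-Hochberg adjustment over all CpGs of the genome and a difference of at least 20 points, 11 of 16 CpGs were called between HCT15 and DU145 and 13 of 24 between HCT15 and PC3, each higher in HCT15. Their adjusted p-values reached up to 0.00758 and 0.00596. The 4 of 21 CpGs called between DU145 and PC3 were each lower in DU145 and lay 293 to 775 bp downstream of the start. Upstream of it, over 6 CpGs outside the sites, DU145 and PC3 averaged 6.83% and 6.71%. Within 500 bp upstream DU145 and PC3 were thus both low in mean, with HCT15 at 57.4%. The single CpG outside the sites farther upstream read 93.8% in HCT15 and 100% in PC3.

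DNMT3B (chr20:31349191-31351191, plus strand) averaged 22.9% ± 34.3 in HCT15 (n = 74), 15.8% ± 24.5 in DU145 (n = 75) and 13.7% ± 24.4 in PC3 (n = 75) at the gene start, and no pair differed by 20 points. The difference was in the upstream part of the window. Over 13 CpGs outside the sites in the 500 bp upstream, methylation was 53.8% in HCT15, 18.2% in DU145 and 8.30% in PC3, whereas the 30 or 31 CpGs in the first 500 bp downstream averaged 0.724%, 0.641% and 0.790%. The test called 7 of 74 CpGs between HCT15 and DU145 and 8 of 74 between HCT15 and PC3, each higher in HCT15 and between 518 and 352 bp upstream, with adjusted p up to 0.0242 and 0.00159. No CpG of 75 was called between DU145 and PC3.

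The alternative start of DNMT3B, 17467 bp inside the gene (chr20:31366658-31368658), was almost fully methylated. It averaged 97.4% ± 3.25 in HCT15 (n = 10), 98.2% ± 1.41 in DU145 (n = 8) and 96.5% ± 2.82 in PC3 (n = 10). Its window holds 39 CpGs, fewer than the median of 81 over all promoter windows, with an observed to expected CpG ratio of 0.229.

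For the maintenance pair, the canonical start of DNMT1 (chr19:10304629-10306629, minus strand) averaged 13.3%, 12.7% and 13.2% over all CpGs (62 in each line), and 0.745%, 0.928% and 1.51% outside the sites (48 in each). The test called 1 of its 62 CpGs between HCT15 and DU145, 2 between HCT15 and PC3 and 0 between DU145 and PC3. The 5′ end of the gene, 36333 bp upstream, is carried by no protein-coding transcript of the annotation's basic set, and the start of another gene, S1PR2, falls in its window. It averaged 21.97% ± 29.5 in HCT15 (n = 75), 16.1% ± 23.5 in DU145 (n = 67) and 15.3% ± 23.5 in PC3 (n = 77). The test called 14 of 65 CpGs between HCT15 and DU145, 13 of them higher in HCT15, and 16 of 75 between HCT15 and PC3, 14 of them higher in HCT15. Between DU145 and PC3 it called 8 of 67, of which 4 were higher in DU145 and 4 lower. Outside the sites, 28 CpGs at 500 to 1000 bp downstream averaged 27.5%, 9.89% and 8.35%, and the CpGs nearer the 5′ end averaged at most 2.17%.

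UHRF1 showed opposite levels at its starts. The canonical start (chr19:4908513-4910513, plus strand) averaged 10.8%, 10.7% and 11.4% over all CpGs and 0.564%, 0.390% and 1.44% outside the sites (n = 56, 59 and 59). The gene start lies 6421 bp upstream, and its window, which also holds the start of ARRDC5, averaged 93.0% ± 6.05 in HCT15 (n = 8), 97.8% ± 3.56 in DU145 (n = 9) and 87.0% ± 18.3 in PC3 (n = 15). Over the 8 CpGs shared by the 3 lines, PC3 was at 78.3%, and the range of 19.5 points lay just short of the threshold of 20. Of the windows past the threshold, the smallest called difference was 26.7 points. The test called 3 of 9 CpGs higher in DU145 than in PC3, of which 2 were in sites.

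**Figure D1:**
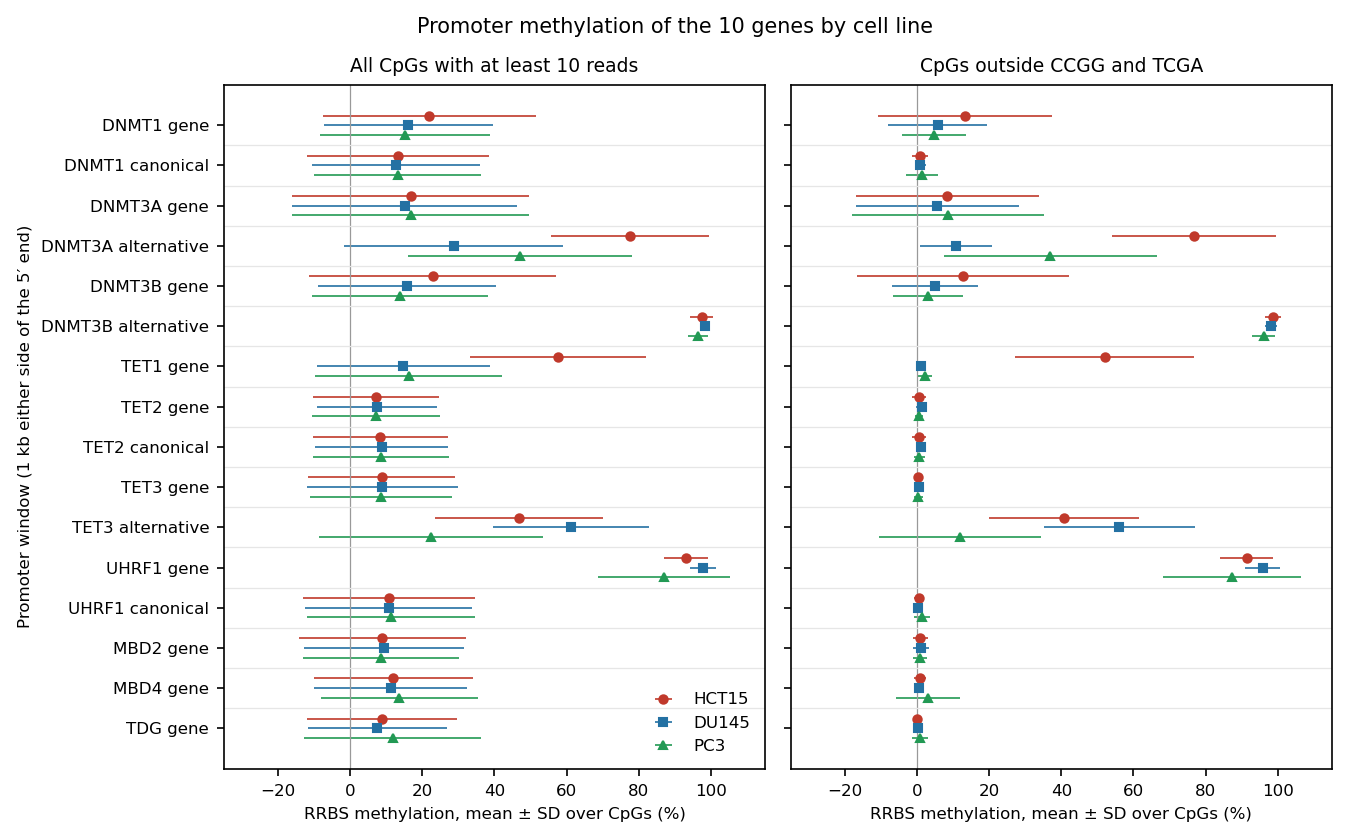
RRBS methylation of the 16 promoter windows (rows) in percent, as means with bars of 1 SD among the CpGs that had at least 10 reads in HCT15, DU145 and PC3, over all CpGs (left) and outside CCGG and TCGA (right). Bars that run below 0 are SDs of skewed values. Outside the sites most windows fall close to 0 in every line, while those of TET1 and the alternative starts of DNMT3A and TET3 spread between lines and those of the DNMT3B alternative and UHRF1 gene starts stay above 87%.

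Among the erasers, TET1 had the clearest split between lines. Its single window (chr10:70319094-70321094, plus strand) averaged 57.7% ± 24.4 in HCT15 (n = 48), 14.7% ± 24.0 in DU145 (n = 42) and 16.2% ± 26.0 in PC3 (n = 48). Outside the sites, 731 of 1549 reads were methylated in HCT15 (47.2%, exact 95% interval 44.7 to 49.7%), 35 of 3831 in DU145 (0.914%, 0.637 to 1.27%) and 62 of 2669 in PC3 (2.32%, 1.79 to 2.97%). The 34 CpGs of HCT15 outside the sites had a mean of 52.1% and an SD of 24.8, whereas the highest value of such a CpG was 4.17% in DU145 and 7.35% in PC3.

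HCT15 exceeded DU145 at TET1 by 37.3 points (42 CpGs) and PC3 by 41.4 points (48 CpGs). The test called 29 of 42 and 35 of 48 CpGs, each higher in HCT15, with adjusted p up to 0.00924 and 0.0418. Outside the sites 27 of 30 and 31 of 34 were called. No CpG of 42 was called between DU145 and PC3, where the difference was -0.785 points. The called CpGs ran from 57 bp upstream to 825 bp downstream of the 5′ end.

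TET2 was unmethylated in every line at the CpGs measured outside the sites. Its starts lie 1001 bp apart, so that the windows overlap and share 40 measured CpGs outside the sites. Over all CpGs the gene start averaged 7.16%, 7.44% and 7.20%, and the canonical start 8.36%, 8.73% and 8.57%. Outside the sites these fell to between 0.537% and 1.29%, and no CpG was called in any pair. Most CpGs of the gene start were measured more than 500 bp downstream, and the 5′ end itself was hardly covered.

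TET3 was unmethylated at its gene start and differed between lines at its alternative start. The gene start (chr2:74211037-74213037, plus strand) has the most CpGs of the 16 windows (219) and averaged 8.74%, 8.88% and 8.56% over all CpGs, and 0.335%, 0.716% and 0.442% outside the sites (n = 92, 87 and 92). None of its CpGs was called in any pair.

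The alternative start of TET3, 17803 bp downstream (chr2:74228840-74230840, transcript TET3-201), averaged 46.7% ± 23.3 in HCT15 (n = 49), 61.2% ± 21.6 in DU145 (n = 49) and 22.5% ± 31.0 in PC3 (n = 51). Outside the sites, 41.2% of 1533 reads were methylated in HCT15 (exact 95% interval 38.7 to 43.7%), 55.9% of 3099 in DU145 (54.2 to 57.7%) and 9.16% of 2183 in PC3 (7.98 to 10.5%). DU145 exceeded PC3 by 41.2 points and HCT15 exceeded PC3 by 26.7 points over 49 CpGs. HCT15 minus DU145 was -14.5 points, short of the threshold.

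The test called 39 of 49 CpGs as higher in DU145 than in PC3 and 28 of 49 as higher in HCT15 than in PC3, with adjusted p up to 0.00702 and 0.0361. It also called 13 of 49 as lower in HCT15 than in DU145, with adjusted p up to 0.0364. Along the window, the 8 CpGs outside the sites in the first 500 bp downstream averaged 65.2%, 89.0% and 9.81%, and the 30 in the 500 bp upstream 34.3%, 47.3% and 10.6%. The order DU145, HCT15, PC3 was the same on both sides of the start.

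**Figure D2:**
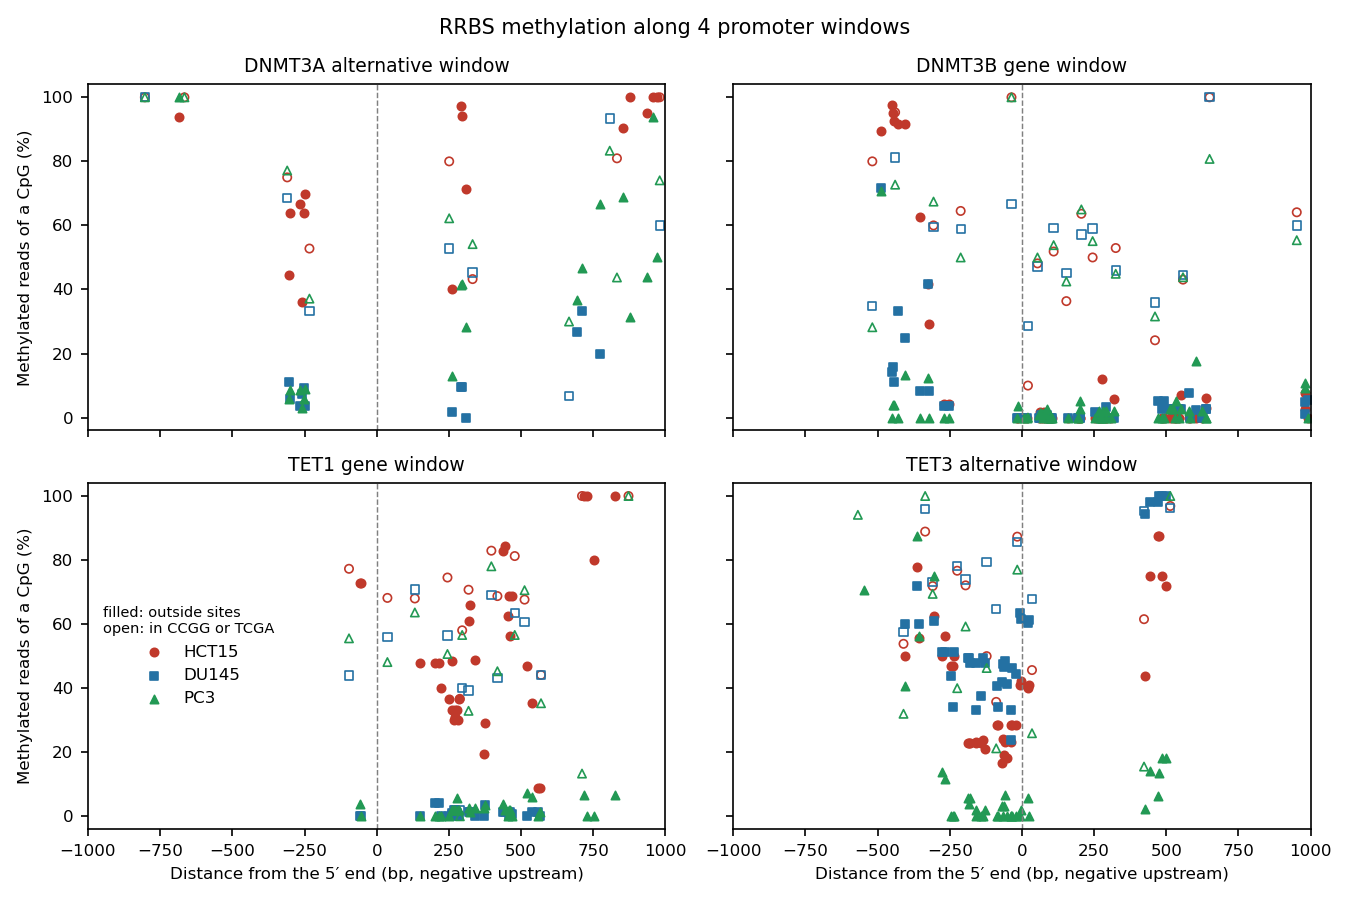
Methylated reads of each CpG (%) against its distance from the 5′ end (bp, negative upstream) in the windows of the DNMT3A alternative, DNMT3B gene, TET1 gene and TET3 alternative starts, for the 3 lines. Filled points are CpGs outside CCGG and TCGA, and open points are CpGs inside them. The open points have medians of 80.5% in HCT15 and 68.1% in PC3 at DNMT3A, and of 69.7% in HCT15 at TET1. At TET3 their medians are 78.05% in DU145 and 71.9% in HCT15. For the remaining lines and windows the medians of the open points lie nearer the middle of the scale, at up to 57.98%. The filled HCT15 points of the TET1 window run from 8.82 to 100% with a median of 48%, above every filled point of the other lines there. In the 500 bp upstream of DNMT3B they run from 0 to 97.5%. The filled PC3 points are low across most of the TET3 window.

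The glycosylases and the reader were unmethylated in each line. The windows of MBD4 (chr3:129158022-129160022, minus strand, shared with the start of IFT122) and of TDG (chr12:104358600-104360600, plus strand, shared with UQCC6) averaged 11.2 to 13.6% and 7.50 to 11.8% over all CpGs. Outside the sites MBD4 was at 0.780%, 0.624% and 3.09% and TDG at 0.120%, 0.449% and 0.957%. MBD2 (chr18:51750039-51752039, minus strand) averaged 8.98%, 9.37% and 8.65% over all CpGs, and 0.993%, 1.11% and 0.868% outside the sites. In these 3 genes between 0 and 2 CpGs per pair and gene were called. In MBD4 the CpGs at 386 and 388 bp downstream were higher in PC3 than in HCT15.

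Counted over the 10 genes, 3 of 16 windows differed by at least 20 points between any pair of lines, where 22.2% of all promoter windows did. The count was 2 of 16 for HCT15 against DU145, with 16.4% over all windows. It was 3 of 16 for HCT15 against PC3, with 16.9% over all windows, and 1 of 16 for DU145 against PC3, with 10.7%. Outside the sites, 3 of 15 windows with enough CpGs differed, where 23.4% of all windows did. These shares were near the background. The median absolute difference was 0.841, 0.836 and 0.790 points in the 16 windows for the 3 pairs, and 1.72, 1.77 and 1.52 points over all windows.

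Of single CpGs in the 16 windows, each counted once, 80 of 744 were called between HCT15 and DU145, 64 higher in HCT15 and 16 lower. Genome-wide 15.1% of CpGs were called in this pair. Between HCT15 and PC3, 105 of 780 were called, 100 of them higher in HCT15, and 15.8% genome-wide. Between DU145 and PC3, 57 of 757 were called, 47 higher in DU145, and 16.8% genome-wide. The windows of TET1, DNMT3A alternative and TET3 alternative together held 53, 76 and 43 of these calls in the 3 pairs, in the same order. Directions leaned the same way over all promoter windows that differed by at least 20 points. Of these, 2380 were higher and 451 lower in HCT15 than in DU145. The counts were 2434 and 371 for HCT15 against PC3, and 1116 and 635 for DU145 against PC3. The Fisher tests compare reads of single libraries, and the genome-wide shares include many CpGs outside promoters.

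Other genes of the pathway were taken from a list of 33 with 49 windows, including further MBD proteins, cofactors and repair enzymes. In windows of these genes with at least 5 shared CpGs, 0 of 35 differed by 20 points between HCT15 and DU145, 1 of 31 between HCT15 and PC3, and 0 of 31 between DU145 and PC3. The exception was NEIL1, a base excision repair glycosylase, at 45.2% in HCT15 and 18.5% in PC3 over 28 CpGs. Over the 12 CpGs shared by all 3 lines, NEIL1 averaged 23.5% in HCT15, 16.1% in DU145 and 16.9% in PC3. Over the 8 of these outside the sites it averaged 0%, 0.379% and 0.638%. Outside the sites the counts were 2 of 34, 1 of 29 and 0 of 29 in the same order of pairs. They include NEIL1 again and CXXC5, a CXXC-domain protein, at 3.66% in HCT15 and 29.2% in DU145 over 10 CpGs. The canonical window of CXXC5 differed less, at 1.89% in HCT15 and 10.9% in DU145 over 28 CpGs outside the sites shared by the 3 lines. The PC3 RRBS file holds 18 CpGs on X and 0 on 22, so windows there, in these lists and in the background, were not compared with PC3. At the level of CpGs, 33 of 1124, 36 of 1083 and 30 of 943 were called in the 3 pairs, with 18, 20 and 14 higher in the line named first. Genome-wide, 15.1%, 15.8% and 16.8% of CpGs were called, in and outside promoters. Of all promoter windows, 16.4%, 16.9% and 10.7% differed by 20 points in these pairs, counted with the sites.

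MBD-seq was then set beside RRBS in the same windows. Over the TET1 window, MethylCap gave 18 fragments in HCT15 and none (0) in either prostate line. MethylCollector Ultra gave 8, 0 and 0, MethylCollector 5, 0 and 0, and MethylMagnet 1, 0 and 0. MethylMiner gave 7, 3 and 3. Fragments of the first 4 kits were thus found in HCT15 only, the line with the methylated window. Per 1000000 fragments of the library, MethylCap was at 4.64 in HCT15 (exact 95% interval 2.75 to 7.33), and its counts of 0 allow up to 3.65 in DU145 and 3.16 in PC3 at 3 fragments. Both limits lie within the HCT15 interval. The DU145 libraries of the 3 smaller kits could not show a difference at their depth, since 0 fragments there allow 99.0 to 299.2 on this scale. Nor could MethylCollector in PC3, where 0 fragments allow 35.3 against 18.8 in HCT15. MethylMagnet rested on 1 fragment in HCT15, at 16.7 (0.423 to 93.0), and its 0 fragments in PC3 allow 12.4, within that interval.

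Over the DNMT3A alternative window, MethylCap gave 32, 0 and 2 fragments in HCT15, DU145 and PC3. On the same scale these are 8.24 (5.64 to 11.6) in HCT15 and 2.10 (0.255 to 7.60) in PC3, and the count of 0 in DU145 allows up to 3.65 at 3 fragments. MethylCollector Ultra gave 10, 0 and 0, MethylCollector 3, 0 and 0, MethylMagnet 1, 0 and 2, and MethylMiner 15, 7 and 2. Over the TET3 alternative window MethylCap gave 8, 3 and 2, or 2.06, 3.65 and 2.10 per 1000000 with overlapping intervals. MethylCollector Ultra gave 5, 1 and 0 fragments, MethylCollector 2, 1 and 0, MethylMagnet 0 in each line, and MethylMiner 9, 7 and 3. No count of a single kit separated DU145 from PC3 at TET3.

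Taking the 5 kits as blocks, an exact permutation test (two-sided, 7776 relabellings of lines within kits) asked whether relative depth followed RRBS. Relative depth is the mean depth of a window divided by that of the genome in the same library. The test covered the 3540 windows with an RRBS range of at least 20 points. The exact p was 0.000772 at TET3 alternative (adjusted over all 3540 windows, 0.0597), 0.00154 at DNMT3A alternative (adjusted 0.0719) and 0.0103 at TET1 (adjusted 0.0726). The line with the highest RRBS level was deeper than the lowest line in 4 of 5 kits, with the other equal at 0, in 5 of 5, and in 4 of 5. At TET3 alternative, MethylCollector and MethylCollector Ultra were among these 4 with 1 fragment each in DU145 and 0 in PC3. At DNMT3A alternative and TET1 the lowest line was DU145. The 3 smaller kits gave 0 fragments in that line, and their depth there could not show a difference. Before adjustment 1317 of the 3540 windows, 37.2%, lay below 0.05, of which 1288 had depth rising with methylation. After adjustment 0 of 3540 (0%) did, and the smallest adjusted p was 0.0597. The smallest exact p that the design allows is 0.000129. None of the 3 windows therefore passed the adjusted threshold.

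**Figure D3:**
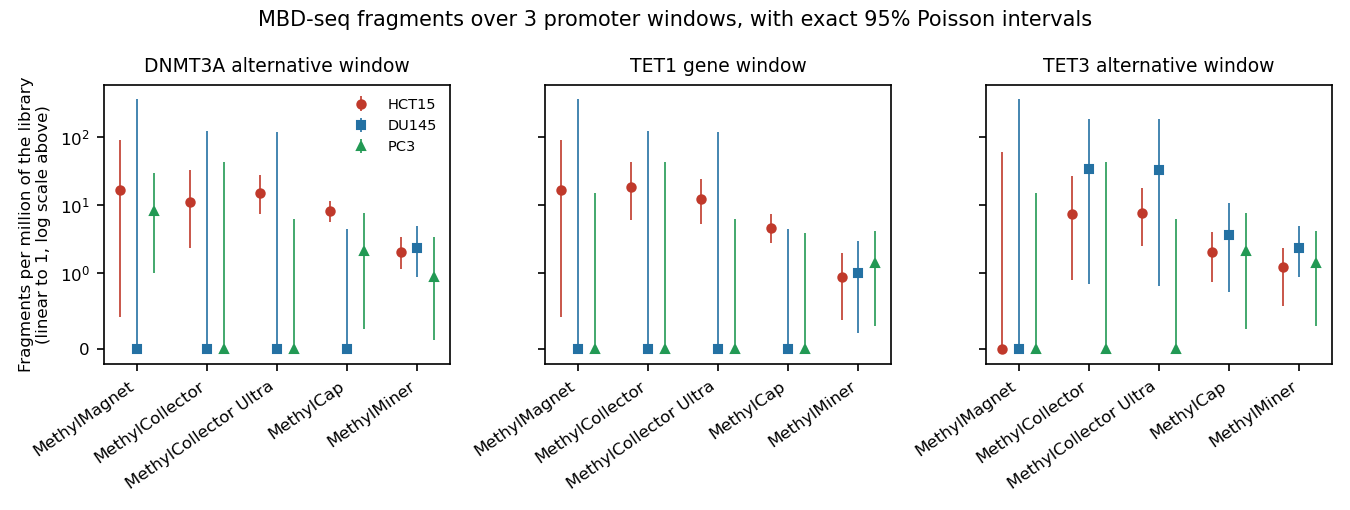
MBD-seq fragments per 1000000 fragments of the library (linear up to 1, log scale above) over the windows of the DNMT3A alternative, TET1 gene and TET3 alternative starts, by kit and cell line, with exact two-sided 95% Poisson intervals, whose upper ends at a count of 0 lie above the limit at 3 fragments. HCT15 is highest at DNMT3A and TET1 in the first 4 kits, at 4.64 to 18.8 for TET1, and the long bars of DU145 show the shallow libraries.

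Fragments also lay over windows that RRBS gave as unmethylated or mostly unmethylated. The canonical start of UHRF1 held 14, 6 and 4 MethylCap fragments in HCT15, DU145 and PC3. The DNMT3A gene start held 14, 0 and 5. In that window, the few CpGs measured outside the sites more than 500 bp upstream averaged 88.7%, 99.0% and 92.3%. RRBS measured 68 to 72 of the 188 CpGs in the first window and 67 to 69 of 183 in the second, so that most of their CpGs were not seen. The TET2 gene start held 3, 0 and 0 MethylCollector fragments, 4, 0 and 2 of MethylCollector Ultra and 4, 1 and 0 of MethylCap. In that window RRBS measured 46 to 51 of 120 CpGs. The starts with high RRBS levels held 15, 5 and 6 (DNMT3B alternative) and 13, 4 and 2 (UHRF1 gene) MethylCap fragments. MBD2, MBD4 and TDG held 0 MethylCap fragments in each line, whereas MethylMiner gave 3 to 7, 2 to 13 and 1 to 6 fragments over them.

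By kit, MethylMagnet reached 2, 0 and 7 of the 16 windows in HCT15, DU145 and PC3, where it reached 15.8%, 3.37% and 28.5% of all promoter windows. MethylCollector reached 7, 2 and 2 (30.8%, 7.35% and 14.7% of all windows). MethylCollector Ultra reached 10, 2 and 8 (47.7%, 7.29% and 42.9%). MethylCap reached 12, 8 and 9 (73.3%, 47.7% and 47% of all windows). MethylMiner reached 16 in every line (97.4%, 90.1% and 86.1%). Counts thus ran from 0 windows in the smallest library to 16 in the largest, and library size moved with them. Its part in the counts was not tested.

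Across the windows with at least 5 CpGs outside the sites, relative depth and RRBS level had a Spearman correlation of 0.70 in HCT15 (15 windows), 0.27 in DU145 (15) and 0.74 in PC3 (16) for MethylCap. For MethylMiner it was 0.40, 0.52 and -0.68. For MethylCollector it was 0.16, -0.08 and -0.06, and for MethylCollector Ultra 0.54, 0.16 and -0.23. For MethylMagnet it was 0.50 in HCT15 and -0.40 in PC3, with no value in DU145, where these windows held 0 fragments. The windows share a library and differ in CpG content, so these are descriptions. In PC3, MethylMagnet had a fragment in 6 of the 12 windows below 10% methylation and in 0 of the 2 at or above 50%.

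Averaged over the 16 windows, the relative depth of MethylMagnet was 1.82 ± 1.59 (SD, n = 3 lines). It was 4.17 ± 2.10 with MethylCollector and 4.31 ± 1.52 with its Ultra version. MethylCap stood at 2.33 ± 0.352 and MethylMiner at 2.21 ± 0.508. Over all promoter windows the 3 lines ranged from 4.37 to 8.64 for MethylMagnet, from 4.30 to 6.49 for MethylCollector and from 3.01 to 4.30 for MethylCollector Ultra. They ranged from 1.98 to 2.27 for MethylCap and from 1.67 to 2.09 for MethylMiner. The values for MethylMagnet in the 16 windows rest on 2, 0 and 8 fragments.

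**Figure D4:**
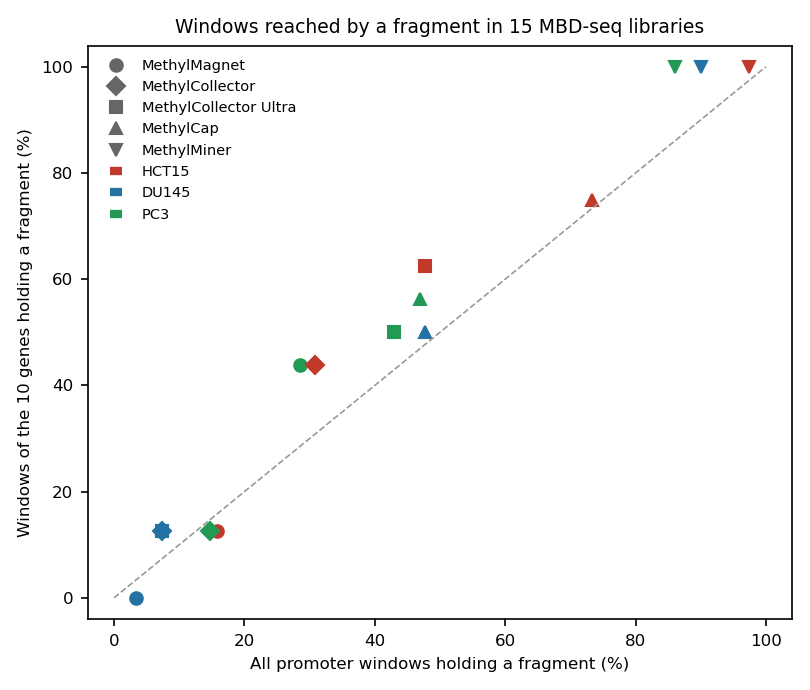
Share of the 16 windows of the 10 genes holding at least 1 fragment (%) against the share of all 27621 promoter windows (%), for the 15 MBD-seq libraries. Symbols give the kit, colours the cell line, and the dashed line equal shares. The points follow the line from MethylMagnet in DU145 (0 of 16 windows) to MethylMiner (16 of 16).

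Their sequence was also described. The 16 windows held 37 to 219 CpGs, with an observed to expected ratio of 0.229 to 0.845. The lowest values in both were those of the DNMT3B alternative and UHRF1 gene starts, which were methylated in each line. Searched on both strands, the letters GGGCGG were found in 14 of 16 windows, against 74.1% of all promoter windows, and were missing from the same pair. CCAAT was in 14 of 16 (88% of all windows), CCGGAAG in 2 (24.5%), and GCATGCGC (7.74%) and TGACGTCA (3.5%) in 1 each. CCGGAAG holds the site CCGG. The canonical start of DNMT1 held both copies of GCATGCGC found.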

How the data were processed

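The MBD-seq signal, deposited by the authors as the coverage of each run of bases by distinct fragments, was not scaled. They aligned pairs to NCBI build 37 (hg19) using Bowtie, required unique mapping within 400 bp and merged duplicates. The RRBS files hold read counts, methylated and total, for each CpG after the authors summed its strands, with 6 reads as the lowest total. The RRBS aligner is not given in the sources used here. The genes and lists were chosen with earlier results of these data known.

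Main alternative starts were those with the most basic transcripts. All members were named; other pathway genes were named at a difference of 20 points, of which 1 is not reported here. Window levels were means over CpGs with at least 10 reads, compared over at least 5 shared CpGs. Fisher's exact tests were adjusted over all CpGs. For the permutation test a pseudocount of 1 was added to relative depth before taking log2. The limit at 0 was 3 fragments. Leaving out CpGs in CCGG and TCGA was added after seeing the data. Scripts (Python 3.11.15, numpy 2.4.6, pandas 2.3.3, scipy 1.17.1, numba 0.67.0, matplotlib 3.10.9) were tested on simulated data. The 3 lines of a kit were the units of the SD of relative depth and are not replicates of a condition. Fisher p-values cover the counting error of reads in single libraries. The permutation p-values compare relabellings of lines within kits. Neither measures spread between cultures.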

Additional observations from a re-analysis of the deposited data

How the results depend on the processing

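The count of 3 windows with a difference between lines stayed within 1.5 times under 9 of 10 settings and was 1 of 10 windows with the 5′ ends of genes only. The differences at TET1 ranged from 36.6 to 49.9 points, those of HCT15 against the other lines at DNMT3A alternative from 30.9 to 58.6, and those against PC3 at TET3 alternative from 25.4 to 45.7. Counts of called CpGs stayed within 1.5 times of the values given. No direction reversed under any setting tried. Leaving out MethylMiner or another kit, a pseudocount of 0.1, ranks, a coverage of 20, windows of 500 bp and the CpGs outside the sites gave adjusted p-values of 0.0577 to 0.194 at TET3 alternative, 0.0575 to 0.194 at DNMT3A alternative and 0.0656 to 0.280 at TET1, whose exact p was 0.0761 with ranks. Leaving out a cell line leaves too few relabellings to reach 0.05 and was not run.

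Summed over lines, the 9, 11, 20 and 29 windows with a fragment of MethylMagnet, MethylCollector, MethylCollector Ultra and MethylCap (of 48) became 0, 4, 6 and 19 at a depth of at least 2. Within 500 bp they were 3 for MethylMagnet and 19 for MethylCap, and within 2 kb 14 for MethylMagnet. Relative to the median promoter window above 0, mean depth was 0.175, 0.247, 0.640, 1.01 and 1.22 in the order of kits given. The values that follow are relative to the mean depth of the genome, as in the main results. Within 500 bp, relative depth was 0.994 for MethylMagnet, 6.50 for MethylCollector Ultra and 1.94 for MethylCap. Without each line in turn it ranged from 1.28 to 2.73 for MethylMagnet, 3.23 to 5.31 for MethylCollector, 3.76 to 5.18 for MethylCollector Ultra, 2.19 to 2.53 for MethylCap and 1.94 to 2.45 for MethylMiner. The cause of these changes was not tested. No paired analysis was possible because each kit and line has a single library, with the kit already the block of the permutation test.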
